A study of Mus musculus with 6 samples.

Results

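The S100a calcium-binding genes described here are 10 genes of the mouse S100 family, S100a1, S100a3, S100a4, S100a6, S100a8, S100a9, S100a10, S100a11, S100a13 and S100a16, each read by 1 probe of a bead array. The genes were selected by symbol from their levels on these same arrays, whose values were known when the list was drawn up. Their levels and differences are therefore given as a description, with no p-value for any member. Where members past a threshold are counted, the count describes the selected genes and tests nothing. The array held 17 genes whose symbol starts with S100, and these 10 were among 19057 genes on the array. RNA came from 6 samples of OG2 mice, which in every group carry GFP driven by regulatory DNA of Pou5f1, a gene of pluripotent and germ cells. HF samples held hair follicle cells from dorsal skin of mice aged 2 months, HFGSC samples held germline stem cells derived from hair follicles of dorsal skin at 4 months, and GSC samples held germline stem cells of the testis at 3 months, with 2 arrays in each group. Age therefore differs along with cell type in every comparison, and tissue of origin differs as well in those with GSC. These cannot be told apart. How the cells were isolated or kept is not given in the labels used here, and they do not tie replicates to separate animals or cultures, so the spread between arrays may be technical.

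S100 proteins are small proteins with paired EF-hand motifs, helix-loop-helix folds that bind calcium. Most work as dimers that open a hydrophobic face when calcium is bound and then hold a partner protein, often an annexin, a cytoskeletal motor or an enzyme, and some are also released from cells and act on receptors. In skin several of them accompany keratinocyte differentiation and hair formation, others mark fibroblasts, and the S100a8 and S100a9 pair is best known from neutrophils and inflamed epidermis. Most S100a genes lie in one cluster on chromosome 3 of the mouse, around the epidermal differentiation complex, a stretch of genes for cornified envelope proteins.

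In short, 9 of the 10 members were detected on both HF arrays and 6 were detected on all 6 arrays. The members differed in pattern: S100a1, S100a3 and S100a8 were detected in HF alone, S100a4, S100a6, S100a10, S100a11 and S100a13 were detected in every group with their highest mean in HF, and S100a16 stayed close to the detection limit with overlapping HF and HFGSC values. S100a9 was not detected on any array. Detection here is a detection p under 0.05, and by that measure both HF arrays detected 44.1% of the array genes. Levels below are normalized log2 intensities, where a difference of 1 is a doubling. The level of a gene is not compared with that of another gene because each probe has its own brightness. Summed levels of marker lists add linear levels over genes, so the brightest probes weigh most. Such a sum can rest on different genes in different groups.

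**Figure D1:**
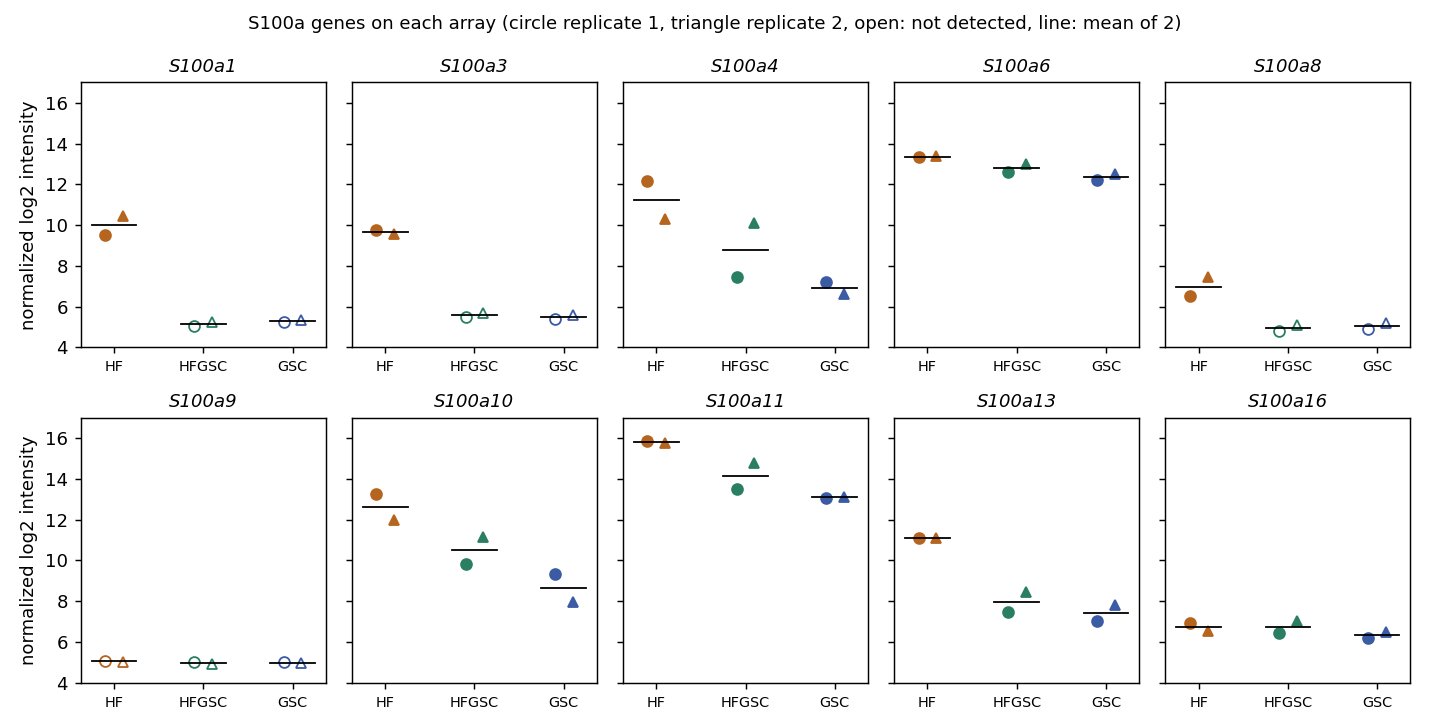
Normalized log2 intensity (vertical axis) of each S100a gene on the 2 arrays of HF, HFGSC and GSC, with circles for replicate 1, triangles for replicate 2, open symbols for arrays without detection and a line at the mean of the 2 arrays. S100a1, S100a3 and S100a8 have filled symbols in HF only, while S100a4 has 1 HFGSC array at 7.46 and the other at 10.10.

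The array facts that bear on these values are as follows. Of 45281 probes, between 16094 and 19552 were detected per array, and 10913 genes were tested in limma after dim probes were left out. Between HFGSC and HF 26.5% of tested genes passed an adjusted p of 0.05, and 32.1% did between GSC and HF; with the replicate number as a block the shares were 46.9% and 51.9%. Between HFGSC and GSC the share was 0.44%, and it was 1.59% with the block. Leaving out 1 array moved these counts: 2896 genes passed in HFGSC against HF, and 1371 or 1479 once HF replicate 1 or 2 was left out and 1919 once HFGSC replicate 1 was. In GSC against HF 3501 passed, and 1699 or 2030 once HF replicate 1 or 2 was left out and 2210 or 1975 once GSC replicate 1 or 2 was. The tissue labels were set against marker lists. All 13 spermatogonial markers were detected on both arrays of HFGSC and of GSC, and 1 of 13 on both HF arrays. Of 9 basal and bulge keratinocyte markers 3 (Itga6, Cd34 and Sox9) were detected on both HF arrays, while Krt5, Krt14, Krt15 and Trp63 were not detected on any array. Of 10 markers of differentiating epidermis 3 (Krt10, Sprr1a and Sbsn) were detected on both HF arrays. No hair shaft keratin on the array (Krt31, Krt33a, Krt33b, Krt34, Krt35, Krt71, Krt82 and Krt86) was detected on any array. Of 13 fibroblast and mesenchyme markers 6 were detected on both HF arrays. In the order keratinocyte, epidermis and fibroblast, these lists had 4, 4 and 10 genes detected on both HFGSC arrays. On both GSC arrays the counts were 3, 3 and 9, so detection of these markers did not set HF apart. In bulk RNA, fewer cells of a type and less RNA per cell cannot be told apart.

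S100a10 and S100a11 are the members best known as annexin ligands. S100a10, also called p11, has lost the ability to bind calcium and forms a tetramer with annexin A2 that anchors proteins at the plasma membrane. Its log2 levels were 13.25 and 12.00 (HF), 9.82 and 11.16 (HFGSC) and 9.33 and 7.96 (GSC). Every HF array lay above every HFGSC array, and every HFGSC array above every GSC array. The mean difference was -2.13 (SE 0.70) for HFGSC against HF and -3.98 (SE 0.70) for GSC against HF, which are folds of 4.39 and 15.8. S100a10 varied within groups as well: replicate 2 minus replicate 1 was -1.25 in HF, 1.35 in HFGSC and -1.37 in GSC, larger in size than 91.1%, 83.4% and 91.5% of tested genes. HFGSC minus HF was -3.43 within replicate number 1 and -0.84 within number 2.

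S100a11, which binds annexin A1 and takes part in membrane repair and keratinocyte growth control, had the tightest HF values of this pair. Its log2 levels were 15.85 and 15.78 (HF), 13.49 and 14.77 (HFGSC) and 13.07 and 13.12 (GSC), again with no overlap between any of the groups. The deposited intensities behind these were 65738 and 64429 in HF, where the brightest probe of any array read 69579, so HF values lay near the top of the scale. Whether such spots were saturated is not given in the sources used here, so the differences from HF may be understated. HFGSC read 9477 and 27171, and GSC read 8132 and 8881. The log2 difference from HF was -1.68 (SE 0.37) in HFGSC and -2.72 (SE 0.37) in GSC. It was -2.32 without HFGSC replicate 2 and -1.04 without HFGSC replicate 1, so the size of the HFGSC difference rested on which HFGSC array was used.

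S100a6, or calcyclin, is a ligand of annexins and of the ubiquitin ligase adaptor Cacybp and is common in proliferating and mesenchymal cells. It read 13.32 and 13.38 (HF), 12.61 and 13.01 (HFGSC) and 12.23 and 12.49 (GSC). The groups were ordered HF, HFGSC, GSC without overlap, but the steps were small. The log2 difference from HF was -0.53 (SE 0.26) in HFGSC and -0.99 (SE 0.26) in GSC, folds of 1.45 and 1.98. With median scaling in place of quantile normalization the differences were -0.95 and -1.26.

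S100a4, known as metastasin and as fibroblast-specific protein, binds the heavy chain of nonmuscle myosin IIA and loosens its filaments. It had the widest spread between replicates of all tested members in HF and in HFGSC. Its log2 levels were 12.19 and 10.31 (HF), 7.46 and 10.10 (HFGSC) and 7.22 and 6.60 (GSC). Both GSC arrays and HFGSC replicate 1 were low, and HFGSC replicate 2 stood just below HF replicate 2 after normalization. In deposited intensity S100a4 read 5034 and 1109 (HF), 309.7 and 1389 (HFGSC) and 299.8 and 164 (GSC), so before normalization HFGSC replicate 2 stood above HF replicate 2 and those groups overlapped. The log2 difference from HF was -2.47 (SE 0.97) in HFGSC and -4.33 (SE 0.97) in GSC. Without HFGSC replicate 2 the HFGSC difference was -3.79, and without HFGSC replicate 1 it was -1.15. Within replicate number 2 alone HFGSC differed from HF by -0.22, and within number 1 by -4.72. The GSC difference ranged from -5.27 without HF replicate 2 to -3.40 without HF replicate 1.

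S100a1 and S100a13 lie next to each other and are transcribed away from each other. S100a1 is the S100 protein of heart and skeletal muscle, where it binds ryanodine receptors and the calcium pump Atp2a2. S100a13 helps export Fgf1 and interleukin 1 alpha, which leave cells without a signal peptide. The annotated starts of the 2 genes are separated by 104 bases, shown here because both genes were lower on all HFGSC and GSC arrays than on either HF array. Most other tested members had that order too, so it does not set this pair apart. Capitals would mark matches on either strand to the TATA box letters TATAAA, the GC box letters GGGCGG, the AP-1 type letters TGANTCA or the E-box letters CACGTG, and this stretch held 0 of each. It is read on the + strand at chr3:90514331-90514434 in build GRCm38.p6, from RefSeq.
S100a1 to S100a13: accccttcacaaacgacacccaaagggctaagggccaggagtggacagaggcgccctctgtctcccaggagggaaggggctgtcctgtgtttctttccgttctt

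S100a1 read 9.53 and 10.45 (HF), 5.05 and 5.27 (HFGSC) and 5.25 and 5.37 (GSC). It was detected on both HF arrays and on 0 of the 4 germline stem cell arrays, so its fold is a lower bound. The HF level was at least 16.8-fold that of HFGSC and at least 16.6-fold that of GSC, taken against the lowest signal that counted as detected on each array. As fitted, the log2 differences were -4.83 and -4.69 (SE 0.43 each). In the authors' deposited table of normalized log2 values the fit gave -3.19 and -3.08, which are smaller sizes.

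S100a13 was detected on all 6 arrays. It read 11.13 and 11.11 (HF), 7.47 and 8.47 (HFGSC) and 7.04 and 7.83 (GSC). Replicate 2 minus replicate 1 was -0.01 in HF, and both HF arrays lay above all other arrays, while HFGSC and GSC overlapped. The log2 difference from HF was -3.15 (SE 0.57) in HFGSC and -3.68 (SE 0.57) in GSC, folds of 8.89 and 12.9. S100a1 and S100a13 thus both had HF arrays above all germline stem cell arrays, but only S100a13 stayed detectable outside HF.

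S100a3 is known from the cuticle of the hair shaft and is unusually rich in cysteine. It read 9.77 and 9.54 (HF), 5.50 and 5.67 (HFGSC) and 5.38 and 5.62 (GSC). It was detected on both HF arrays and on none of the other 4. HF was at least 13.3-fold above HFGSC and at least 13.1-fold above GSC, and the fitted log2 differences were -4.07 and -4.16 (SE 0.38 each), or -2.60 and -2.65 in the authors' deposited table of normalized log2 values.

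S100a8 and S100a9 form calprotectin, a complex that binds zinc and manganese and signals through Tlr4. S100a8 read 6.51 and 7.45 (HF), 4.83 and 5.09 (HFGSC) and 4.93 and 5.20 (GSC). It was detected on both HF arrays and on none of the other 4, and its intensities of 197 and 181 in HF stood over 92.2 to 113 in HFGSC and 99.7 and 95.8 in GSC. HF was at least 2.08-fold above HFGSC and at least 2.05-fold above GSC. The fitted differences were -2.02 and -1.92 (SE 0.35 each), and in the authors' deposited table -1.17 and -1.04. With detection p under 0.01 S100a8 was not kept. S100a9, its partner, was at background on all 6 arrays, between 4.92 and 5.08. S100a8 was thus detected in HF where the 1 probe of S100a9 was not, with a detection p of 0.037 for S100a8 on HF replicate 1. A probe that does not respond and absent RNA cannot be told apart here. Of the 18 neutrophil and monocyte markers on the array, 13 were not detected on any array, among them Ptprc, Itgam, Camp, Ngp, Ltf, Mpo, Retnlg and Mmp8. The summed level of that list, which includes undetected genes at background, was 746 and 831 (HF), 1089 and 1887 (HFGSC) and 1897 and 2448 (GSC).

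S100a16 is widely expressed and little studied. It read 6.95 and 6.55 (HF), 6.46 and 7.06 (HFGSC) and 6.21 and 6.51 (GSC), and was detected on all 6 arrays. HF and HFGSC overlapped, with a mean difference of 0.00 (SE 0.39), and GSC against HF gave -0.39 (SE 0.39). With median scaling these were 0.46 and 0.01, so no direction is given for S100a16.

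Start regions of members with contrasting patterns are shown next. RefSeq (GRCm38.p6) gave start regions for 9 of the 10 members, 4 of them for S100a3 and 2 for S100a16. Each stretch is the 250 bases before the annotated start on the gene's strand, 5′ to 3′. Capitals mark matches to the same motifs on either strand, and no matches overlap. S100a11 (chr3:93520246-93520495, + strand) and S100a6 (chr3:90612644-90612893, + strand) were read on all arrays with non-overlapping groups. S100a4 (chr3:90603520-90603769, + strand) differed most between replicates in HF and in HFGSC, and S100a8 (chr3:90668821-90669070, + strand) was detected in HF alone.
S100a11: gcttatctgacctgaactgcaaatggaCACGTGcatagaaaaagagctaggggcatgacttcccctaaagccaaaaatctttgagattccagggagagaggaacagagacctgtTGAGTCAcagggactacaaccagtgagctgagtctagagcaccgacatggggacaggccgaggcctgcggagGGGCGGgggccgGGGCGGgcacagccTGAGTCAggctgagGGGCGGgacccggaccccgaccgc
S100a6: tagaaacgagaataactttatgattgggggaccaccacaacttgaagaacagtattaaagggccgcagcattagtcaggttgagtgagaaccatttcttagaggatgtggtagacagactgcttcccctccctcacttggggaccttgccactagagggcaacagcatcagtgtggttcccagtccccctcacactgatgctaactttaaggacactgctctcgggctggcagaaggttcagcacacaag
S100a4: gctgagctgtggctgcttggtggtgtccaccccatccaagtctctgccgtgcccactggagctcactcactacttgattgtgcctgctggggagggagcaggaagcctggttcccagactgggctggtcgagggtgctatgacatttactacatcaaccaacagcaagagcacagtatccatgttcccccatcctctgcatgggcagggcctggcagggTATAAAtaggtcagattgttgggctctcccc
S100a8: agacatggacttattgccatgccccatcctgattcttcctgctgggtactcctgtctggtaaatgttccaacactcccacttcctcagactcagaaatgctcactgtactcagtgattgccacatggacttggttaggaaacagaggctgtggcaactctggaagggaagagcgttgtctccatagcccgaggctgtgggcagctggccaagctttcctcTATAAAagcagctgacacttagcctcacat

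S100a4 and S100a8 each held 1 TATAAA, which 12.4% of all 32851 start regions of this length held. S100a11 held 3 GGGCGG, 2 TGANTCA and 1 CACGTG, and the shares of start regions with at least 1 were 32.7%, 6.75% and 6.02%. S100a6 held none of the 4 motifs. S100a11 had 11 CpG dinucleotides against a median of 6 over all start regions, S100a6 had 3, and S100a4 and S100a8 had 2 each. S100a13 had 13 and S100a1 had 8 in windows that overlap each other. A match of letters is a description and shows no bound factor.

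Read against the whole table, 5 of the 9 tested members passed an adjusted p of 0.05 in limma as lower in HFGSC than in HF, where 9.37% of all tested genes did, and 0 passed as higher, where 17.2% did. The 5 were S100a1, S100a3, S100a8, S100a11 and S100a13; S100a10 passed as well with the replicate number as a block and in the authors' deposited table of normalized values. In GSC against HF 8 of 9 passed as lower, where 12.6% of tested genes did, and 0 as higher, where 19.5% did, the exception being S100a16. At an unadjusted p under 0.05 the counts were 7 and 8. Counted by groups that do not overlap, 8 of 9 members were lower in HFGSC than in HF, where 30.4% of tested genes were lower, 34.6% higher and 65% either. S100a4 is among these 8 on the normalized scale and not in deposited intensity. In GSC 9 of 9 were lower than in HF, where 31.4% of tested genes were lower, 36% higher and 67.5% either. That count includes S100a16, whose mean difference changed sign with median scaling. S100a1, S100a3 and S100a8 entered the test through the HF arrays alone, so a difference in their direction was set by the filter, and because the members were listed with these contrasts known, nothing is read from these counts. Without HF replicate 1 the members that passed in HFGSC against HF numbered 3, with S100a11 and S100a13 lost, and S100a11 was also lost without HF replicate 2. Without HFGSC replicate 2 S100a4 and S100a10 were added, making 7. In GSC against HF 6 to 8 passed over the fits without 1 array. S100a6 was lost without any 1 of the HF or GSC arrays, with median scaling and without the mean-variance trend, and S100a4 without HF replicate 1 or either GSC array. The 9 members had a median log2 difference of -2.13 in HFGSC and -3.68 in GSC, and these did not move with genes at their bounds. The medians of all tested genes were 0.05 and 0.07.

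HFGSC and GSC can be set against each other for the same members. No member passed in limma (0 of 9, and 2 at an unadjusted p under 0.05), where 0.174% of tested genes passed as higher and 0.266% as lower in HFGSC. S100a4, S100a6, S100a10 and S100a11 had both HFGSC arrays above both GSC arrays, 4 of 9 members, and 14.7% of tested genes were ordered so, with 17.7% ordered the other way and 32.3% either. Differences of HFGSC minus GSC were 1.87 (SE 0.97) for S100a4, 1.84 (SE 0.70) for S100a10, 1.03 (SE 0.37) for S100a11 and 0.45 (SE 0.26) for S100a6. For S100a4, S100a10 and S100a11 the difference lay mostly in replicate number 2, at 3.49, 3.20 and 1.65, against 0.24, 0.48 and 0.42 in number 1. For S100a6 it was 0.53 in number 2 and 0.38 in number 1. Without HFGSC replicate 2 the differences were 0.55 for S100a4, 1.17 for S100a10, 0.39 for S100a11 and 0.25 for S100a6. Without HFGSC replicate 1 the difference of S100a11 was 1.67.

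**Figure D2:**
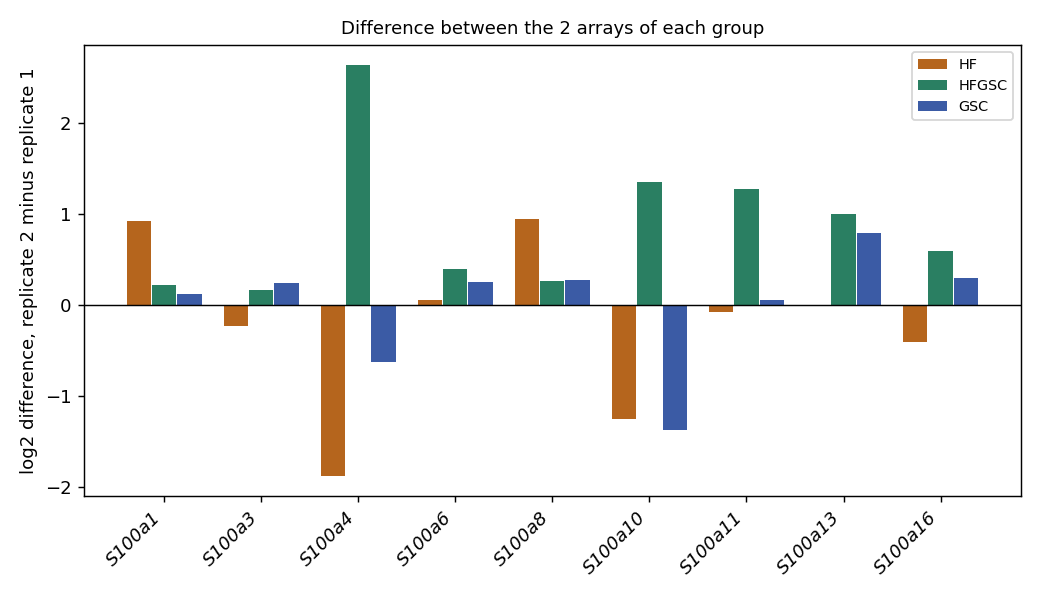
Log2 difference of replicate 2 minus replicate 1 (vertical axis) for the 9 tested members in HF, HFGSC and GSC, 1 bar per group from 0. S100a4 is lowest in HF at -1.87 and highest in HFGSC at 2.63, and S100a10 is negative in HF and GSC and positive in HFGSC.

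The HFGSC arrays differed from each other in other cell markers too. S100a4 was 2.63 higher on HFGSC replicate 2 than on replicate 1, S100a10 1.35, S100a11 1.28, S100a13 1.00 and S100a6 0.40, where the median size of that difference over all tested genes was 0.51. The summed level of the 13 fibroblast and mesenchyme markers was 30538 on HFGSC replicate 1 and 74896 on replicate 2, against 46885 and 51355 in HF and 26949 and 25183 in GSC. Of that list Lum, Postn and Fap were not detected on any array. The list did not move as one between groups. Of its 10 tested genes 5 passed as higher in HFGSC than in HF (Dcn, Thy1, Pdgfra, Fn1 and Col1a2) and 1 as lower (Vim). In GSC 4 passed as higher and 2 as lower. Over all tested genes 17.2% passed as higher and 9.37% as lower in HFGSC, and 19.5% and 12.6% in GSC. Dcn, Thy1, Pdgfra and Col1a2 were not detected on either HF array, so the filter set their direction, while Fn1 and Vim were detected on all arrays. The summed level of the spermatogonial markers was 123851 on HFGSC replicate 1 and 73083 on replicate 2. The part of these markers in the S100a values was not tested.

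Members differed in how alike their profiles were. After each gene was centred on its own mean over the 6 arrays, the closest members were S100a6 and S100a16, with a root mean square log2 difference of 0.30. S100a1 and S100a3 followed at 0.46, S100a3 and S100a13 at 0.48, and S100a4 and S100a10 at 0.49. S100a4 and S100a10 both read higher on HFGSC replicate 2 than on replicate 1, and lower on replicate 2 than on replicate 1 in HF and in GSC. By the same measure the non-member nearest to S100a1 was Csn3 (0.10), to S100a3 L3mbtl3 (0.12), to S100a6 Tm2d2 (0.07), to S100a8 Oit3 (0.08), to S100a11 2310022B05Rik (0.11), to S100a16 Cyth3 (0.13), to S100a10 Ak3 (0.17) and to S100a13 P3h2 (0.19). S100a4 had its nearest non-member, Idh2, at 0.36, the largest distance of these 9. Profiles were centred but not scaled, so genes with small differences between arrays, such as S100a6 and S100a16, lie close whatever their shape. With 6 arrays in 3 groups many genes share a profile, and likeness says nothing of function.

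Along chromosome 3 the members sit at both ends of a stretch of 70 protein-coding genes, with 12 S100 genes from S100a1 to S100a9 at one end and S100a11 and S100a10 at the other, separated by 56 genes after S100a9. Adjacent members did not share 1 pattern. GSC differed from HF by -0.39 for S100a16 and -0.99 for S100a6, and by -3.68 for S100a13 and -4.16 for S100a3 in the same run of genes. S100a14 lies between S100a13 and S100a16 and is an epithelial family member that was not listed. It read 6.54 and 7.31 (HF), 6.49 and 6.77 (HFGSC) and 6.20 and 6.65 (GSC) (limma adjusted p = 0.646 and 0.400). S100a7a, the mouse psoriasin-type gene between S100a6 and S100a8, read 8.40 and 9.49 in HF and was not detected elsewhere, at 5.04 and 5.67 in HFGSC and 5.04 and 5.07 in GSC. HF was at least 8.11-fold above HFGSC (limma adjusted p = 0.0016) and at least 8.03-fold above GSC (adjusted p = 0.000997), but S100a7a entered the test through the HF arrays alone, so its direction was set by the filter.

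**Figure D3:**
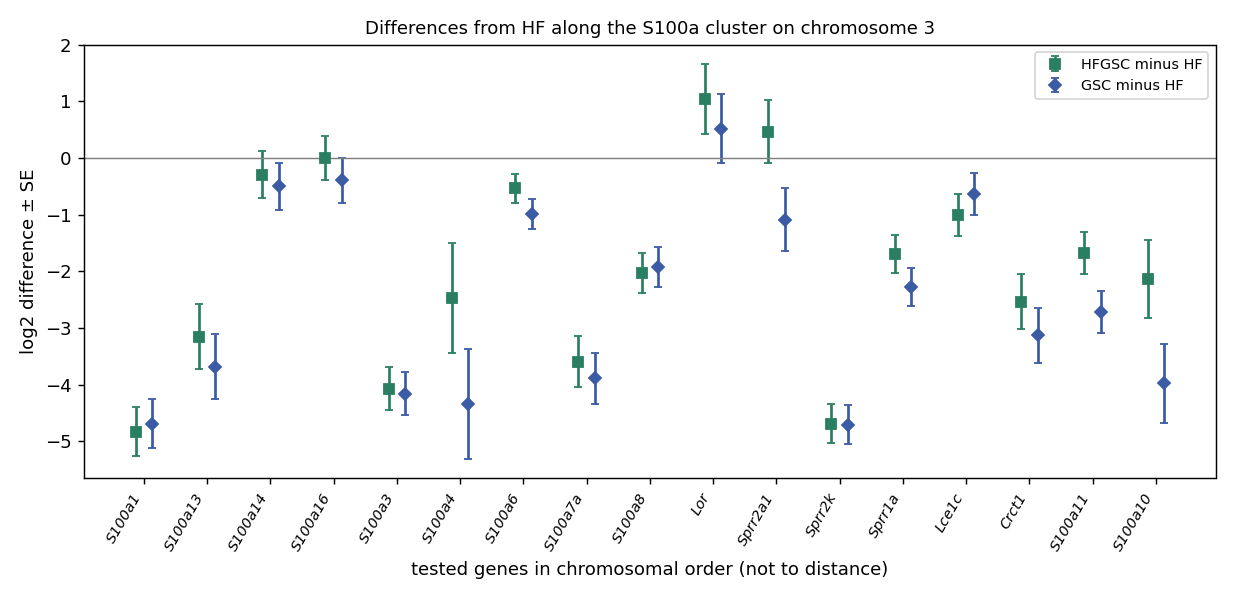
Log2 difference from HF with its SE (vertical axis) for HFGSC and GSC, over the tested genes of the chromosome 3 stretch in their order along the chromosome, without distances (horizontal axis). S100a14, S100a16 and S100a6 lie nearer to 0 than S100a1, S100a13, S100a3, S100a7a and Sprr2k.

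Of 47 non-S100 neighbours on the array, 36 were not detected on any array and 6 were tested. Of these 6, 3 fell in both HFGSC and GSC and 0 rose, or 4 fell in each with the replicate block. Sprr2k and Crct1 of these 3 entered the test through the HF arrays alone, so their direction was set by the filter. Over all tested genes 9.37% passed as lower and 17.2% as higher in HFGSC, and 12.6% and 19.5% in GSC. With the block 46.9% and 51.9% passed in either direction, with 2246 of 10913 genes lower in HFGSC and 2496 in GSC. Sprr2k, a small proline-rich envelope gene, fell at least 12.3-fold in HFGSC (limma adjusted p = 0.000233) and at least 12.2-fold in GSC (adjusted p = 0.000216). Crct1 fell by 2.54 on the log2 scale in HFGSC and at least 4.95-fold in GSC, and Sprr1a fell by 1.69 and at least 3.67-fold (limma adjusted p from 0.00272 to 0.0105). Sprr1a in HFGSC was lost on leaving out HF replicate 1 (adjusted p = 0.0502). Of the 4 fused-type S100 genes on the array, which carry an S100 domain in a long repeat protein, none was kept for the test. Among other S100 genes, S100a5, S100b, S100g and S100z were not tested, and S100z was detected on 1 GSC array. S100pbp, whose product binds S100 proteins, was higher by 1.61 (SE 0.49) in HFGSC (limma adjusted p = 0.0475) and 1.93 (SE 0.49) in GSC (adjusted p = 0.0215). That HFGSC call was lost in each fit without 1 array (adjusted p from 0.0703 to 0.263) and with offset 50, without the filter, with probe means and in the authors' table. In GSC it was lost without HF replicate 1, GSC replicate 1 or GSC replicate 2 (adjusted p up to 0.149).

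The annexins are the best known partners of these members. Like the members, the annexins and the partner, receptor and sensor lists below were drawn up with earlier results of these data known. Their counts and adjusted p-values are therefore a description and lend no separate support to the pattern of the members. Of 12 annexins 9 were tested, and 5 fell in HFGSC and 6 in GSC while 0 rose (6 and 7 fell with the replicate block). Their median differences were -1.35 and -2.01. The shares of all tested genes were 9.37% lower and 17.2% higher in HFGSC, and 12.6% and 19.5% in GSC. With the block they were 46.9% and 51.9% in either direction, with 2246 of 10913 genes lower in HFGSC and 2496 in GSC. Anxa2, the partner of S100a10, read 15.68 and 15.71 (HF), 13.88 and 14.82 (HFGSC) and 14.23 and 14.30 (GSC), and fell by 1.35 (limma adjusted p = 0.0128) and 1.43 (adjusted p = 0.00854). Anxa2 in HFGSC did not pass without HF replicate 1 or HF replicate 2 (adjusted p up to 0.0565) or without the mean-variance trend (adjusted p = 0.0586). Anxa1, the partner of S100a11, read 10.44 and 7.87 (HF), 6.53 and 6.92 (HFGSC) and 6.48 and 4.97 (GSC), and passed in GSC (limma adjusted p = 0.0221) and not in HFGSC (adjusted p = 0.0806, or 0.0165 with the replicate block). Anxa1 in GSC was lost without HF replicate 1 or GSC replicate 2 (adjusted p up to 0.133). Anxa3 and Anxa9 fell in both groups (log2 differences from -2.30 to -3.75), as did Anxa5 and Anxa11, but Anxa9 entered the test through the HF arrays alone. In HFGSC Anxa3 was lost without HF replicate 1, Anxa11 without either HF array, and Anxa5 without either HF array, HFGSC replicate 1 or either GSC array (adjusted p up to 0.132). Anxa5 in HFGSC was also lost without the filter and without the trend (adjusted p = 0.0514 and 0.0680). In GSC Anxa11 was lost without either HF array or either GSC array (adjusted p up to 0.166) and without the trend (adjusted p = 0.0553).

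**Figure D4:**
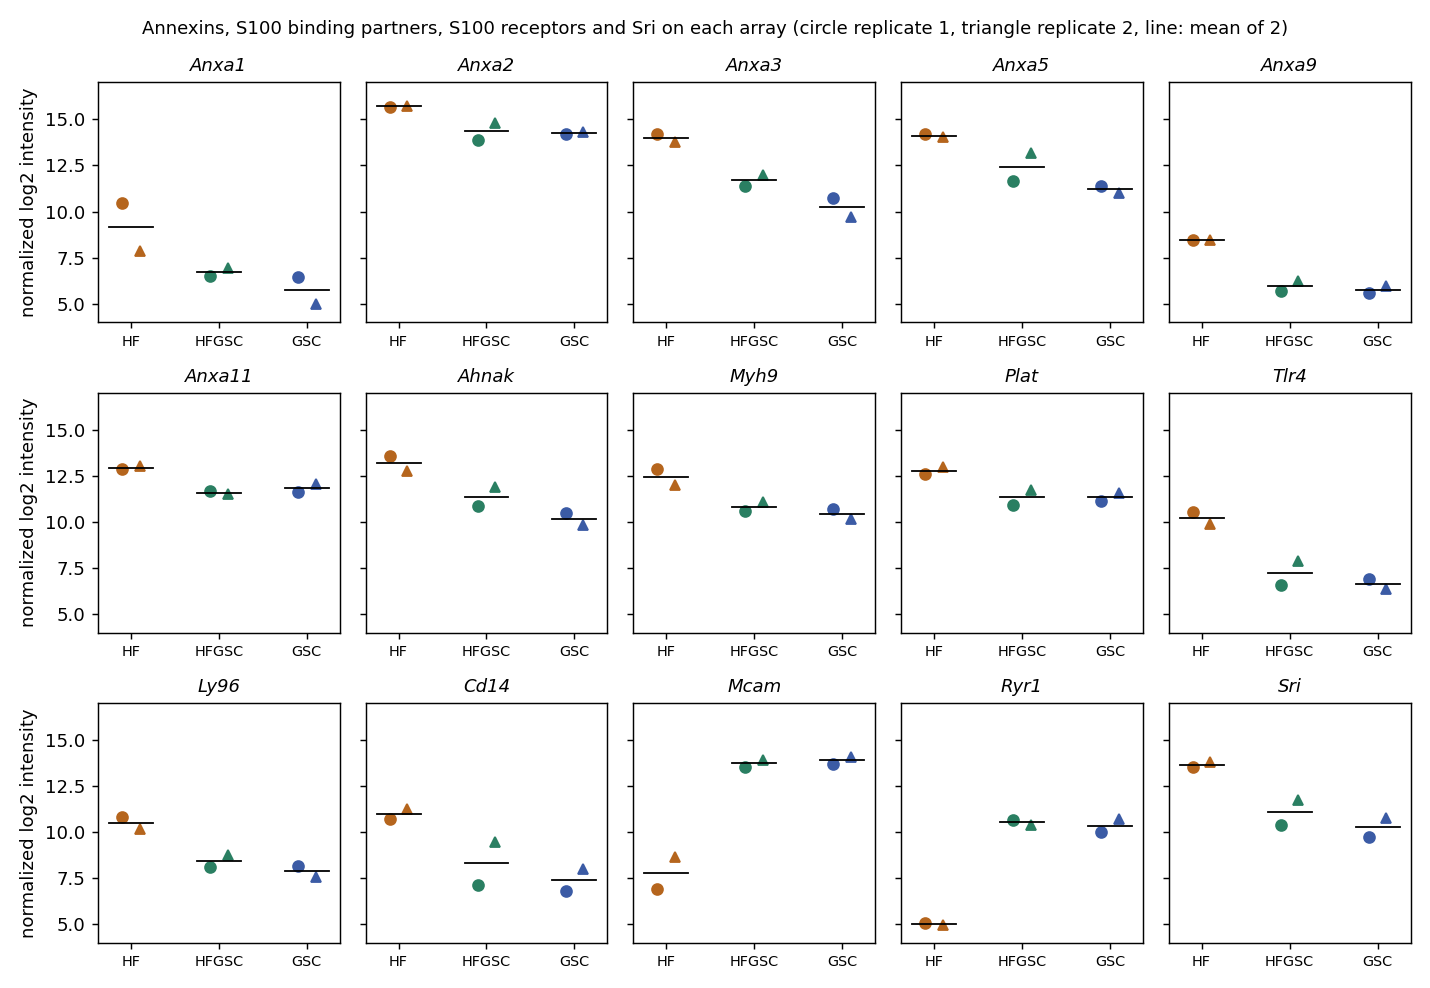
Normalized log2 intensity (vertical axis) of annexins, S100 binding partners, receptors of extracellular S100 proteins and the calcium sensor Sri on each array, with circles for replicate 1, triangles for replicate 2 and a line at the mean of 2. Mcam and Ryr1 are lower in HF than on every other array, and Anxa2, Anxa3, Anxa9, Plat and Sri are higher in HF.

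Of 19 S100 binding partners on the array 9 were tested. Il1a, cargo of S100a13, was not detected on any array and Fgf1 was not tested. In HFGSC 3 fell and 1 rose, where 9.37% of all tested genes passed as lower and 17.2% as higher. In GSC 4 fell and 1 rose, where 12.6% passed as lower and 19.5% as higher. With the replicate block 4 fell in HFGSC, with Atp2a2 added (adjusted p = 0.0205), and 2 rose in GSC. The block shares of all tested genes were 46.9% and 51.9% in either direction. Of 10913 genes, 2246 were lower and 2876 higher in HFGSC with the block, and 2496 and 3173 in GSC. Ahnak, a scaffold held by the S100a10 tetramer, fell by 1.80 in HFGSC (limma adjusted p = 0.0310) and 2.99 in GSC (adjusted p = 0.00382), and Myh9, the myosin heavy chain bound by S100a4, by 1.61 (adjusted p = 0.0320) and 1.98 (adjusted p = 0.0127). Plat, the plasminogen activator that S100a10 binds, fell by 1.45 in each (adjusted p = 0.0266 and 0.0231), and Atp2a2, the pump bound by S100a1, fell by 0.89 in GSC (adjusted p = 0.0401). Ryr1, the skeletal ryanodine receptor that S100a1 binds, rose at least 16.9-fold in HFGSC and at least 14.8-fold in GSC (limma adjusted p = 0.000483 and 0.000509), with S100a1 and Ryr1 detected in opposite groups, so the filter set the direction of both. Ahnak and Plat in HFGSC were lost without either HF array or HFGSC replicate 1, and Myh9 without HF replicate 1 or HFGSC replicate 1 (adjusted p up to 0.227). In GSC Myh9 was lost without HF replicate 1 or GSC replicate 2, and Plat and Atp2a2 without any 1 of the HF or GSC arrays (adjusted p up to 0.194). Myh9 did not pass with the mean over probes in HFGSC or in GSC (adjusted p = 0.104 and 0.0726), and Ahnak in HFGSC did not without the trend (adjusted p = 0.0508). Atp2a2 in GSC did not pass with median scaling, without the filter or without the trend (adjusted p from 0.0681 to 0.0879).

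Among 7 tested receptors of released S100 proteins 3 fell and 1 rose in both groups, or 4 fell in each with the replicate block. Beside these, 9.37% of all tested genes passed as lower and 17.2% as higher in HFGSC, and 12.6% and 19.5% in GSC. With the block 46.9% and 51.9% passed in either direction, with 2246 of 10913 genes lower in HFGSC and 2496 in GSC. Tlr4, which S100a8 and S100a9 signal through, read 10.54 and 9.91 (HF), 6.59 and 7.86 (HFGSC) and 6.91 and 6.38 (GSC) (limma adjusted p = 0.0108 and 0.00462). Its co-receptors Ly96 and Cd14 fell in HFGSC by 2.04 and 2.68 (limma adjusted p = 0.0303 and 0.0493), and in GSC their log2 differences were -2.61 and -3.56 (adjusted p = 0.0102 and 0.0155). Mcam, an adhesion molecule that also binds S100a8 and S100a9, rose by 5.94 and 6.11 (limma adjusted p = 0.00048 and 0.000416). Ager, the classical receptor, read 7.17 and 7.97 (HF), 6.13 and 6.86 (HFGSC) and 6.14 and 6.69 (GSC) and did not pass (limma adjusted p = 0.138 and 0.105). In HFGSC Tlr4 was lost without HF replicate 1, Ly96 without either HF array or HFGSC replicate 1, and Cd14 without every array but HFGSC replicate 2 (adjusted p up to 0.216). Cd14 in HFGSC was also lost with median scaling, without the filter and without the trend (adjusted p from 0.0535 to 0.0694). In GSC Ly96 was lost without HF replicate 1 or GSC replicate 2, and Cd14 without either HF array or GSC replicate 1 (adjusted p up to 0.100).

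Other EF-hand calcium sensors moved both ways. Of 21 tested, 4 rose and 3 fell in HFGSC, and 3 rose and 5 fell in GSC, with median differences of -0.31 and -0.29. With the replicate block 5 rose and 6 fell in HFGSC, and 5 rose and 7 fell in GSC. All tested genes gave shares of 17.2% higher and 9.37% lower in HFGSC, and 19.5% and 12.6% in GSC. With the block these were 46.9% and 51.9% in either direction. Of 10913 genes, 2876 were higher and 2246 lower in HFGSC with the block, and 3173 and 2496 in GSC. Calb2, or calretinin, rose at least 5.81-fold in HFGSC and at least 5.64-fold in GSC (limma adjusted p = 0.00153 and 0.00139), but was not detected in HF, so the filter set its direction. The others that rose (Rcn3, Gca and Efhd1) were likewise not detected on both HF arrays. Sri, or sorcin, fell in both groups, with log2 differences of -2.58 and -3.40 (limma adjusted p = 0.0114 and 0.0033), and the calpain Capn2 likewise, with -3.01 and -3.89 (limma adjusted p = 0.0163 and 0.00527). In HFGSC Sri was lost without HF replicate 2, and Capn2 without either HF array or HFGSC replicate 1 (adjusted p up to 0.106). Over the lists of other S100 genes, neighbours, annexins, partners, receptors and sensors no gene passed between HFGSC and GSC in limma (0 of 55, and 5 at an unadjusted p under 0.05). In that comparison 0.44% of all tested genes passed.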

How the data were processed

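RNA of 6 samples was read on Illumina mouse bead arrays. Per the file headers, the deposited values are probe intensities on a linear scale, each with a detection p-value, and the authors also deposited a table of normalized log2 values, whose columns share a median of 7.05 and lie within 0.148 of quantile normalized log2 intensity. GenomeStudio 2011.1 and R 3.0.2 are named in the submitters' processing notes.

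Intensities were background corrected and quantile normalized with neqc (limma 3.58.1 in R 4.3.3, offset 16, background inferred from detection p), which gives log2 values. A probe entered when any group had it at detection p under 0.05 on each of its 2 arrays, the brightest probe stood for its gene, and 10913 genes were fitted in limma (lmFit and eBayes with a mean-variance trend, 3 residual degrees of freedom) over all 6 arrays, with Benjamini-Hochberg adjustment over all of them. The code was tested on simulated data, with 200 of 10913 genes changed in HFGSC alone. There 0.8% of 2-fold, 19.4% of 4-fold, 47.6% of 8-fold and 69.1% of 16-fold changes passed in HFGSC against HF. In the data 2896 genes passed in that comparison. The adjustment is less strict when more genes differ, so these shares may be too low for the data. S100a4, at a log2 difference of -2.47 in HFGSC against HF, did not pass, so a difference that did not pass may still be large. Of 45281 probes 34885 carried 1 gene symbol, 18 several and 10378 none. Array mean intensities ran from 911 to 1149, and 2 arrays per group limit the precision: an exact permutation test cannot go below p = 0.333. A fold against a group without detection is a lower bound, set per array at the dimmest detected signal, or at the probe's own where that is brighter.

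The members and gene lists were chosen with earlier results of these data known. The rule for genes outside the members named the other S100 genes and, per list and comparison, those past the adjusted p of 0.05, up to the 6 with the smallest, from which examples are given, and the nearest profiles. Ager, Anxa1 and Atp2a2 in HFGSC, Il1a, Fgf1 and the marker genes lie outside that rule and were named after their values were seen. Deviations of arrays with the same replicate number correlated at 0.436, 0.757 and 0.58 between groups, so the numbers were taken as pairs from the data alone, and a fit with the replicate block was set beside the fit without it. Other settings were offset 50, median scaling, the authors' table, no filter, detection p under 0.01, the mean over probes, no trend and each array left out. Start regions and neighbour order are from RefSeq (GRCm38.p6).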

Additional observations from a re-analysis of the deposited data

How the results depend on the processing

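With the replicate block 5122 genes passed in HFGSC against HF, 5669 in GSC against HF and 174 in HFGSC against GSC, in place of 2896, 3501 and 48, and without the mean-variance trend 13 passed in HFGSC against GSC. Leaving out 1 array at a time gave 1371 to 2860 genes in HFGSC against HF, 1699 to 3876 in GSC against HF and 0 to 54 in HFGSC against GSC. The 0 came without HFGSC replicate 2, where 541 genes had an unadjusted p under 0.05 in limma. S100a members that passed as lower in HFGSC than in HF numbered 3 to 7 over the same fits, those lower in GSC than in HF 6 to 8, and those higher in HFGSC than in GSC 0 to 1. Fewer arrays in a fit leave fewer residual degrees of freedom, and for the other changes the cause was not tested. With the replicate block S100a10 passed in HFGSC against HF, and no other member's call changed. No called value turned its direction under any of these settings. With 2 arrays per group, and S100a8 and S100a16 near the detection limit, small differences could not be resolved and large ones could be missed.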
